A study of Mus musculus with 16 samples.

Results

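The 10 genes described here act in the mitochondrial oxidation of long-chain fatty acids or in its control: Cpt1a, Slc25a20, Cpt2, Acadvl, Acadl, Acadm, Hadha, Hadhb, Pdk4 and Ppard. They were chosen by name, with earlier results of these data known, as all array probes whose gene symbol is one of these, and all 10 were found among the 20659 gene symbols on the array. Signals came from CD11b+ myeloid cells of spleen and bone marrow, measured on 16 one-colour Agilent mouse arrays. The mice were WT, STAT4-/-, STAT6-/- or HDC-/-, and each genotype received a control diet or a high-fat diet for 3 months. STAT4 and STAT6 are transcription factors activated by cytokines, and HDC is histidine decarboxylase, the enzyme that makes histamine. Each combination of genotype, tissue and diet had 1 array, hybridised with RNA from the pooled cells of 5 mice. All animals are labelled male. Strain, age, the alleles behind the knockouts and the purity of the CD11b+ isolate are not given in the sources used here.

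Fatty acids enter this pathway as acyl-CoA esters, which cannot cross the inner mitochondrial membrane. CPT1A exchanges the CoA for carnitine at the outer membrane, the carrier SLC25A20 moves acylcarnitine inward, and CPT2 restores the CoA ester inside. Acyl-CoA dehydrogenases for very long (ACADVL), long (ACADL) and medium chains (ACADM) then start each cycle of oxidation, and the trifunctional protein, built from HADHA and HADHB, completes it for long chains. PDK4 inhibits pyruvate dehydrogenase and so spares glucose, and PPARD is a nuclear receptor that fatty acids activate and that controls many genes of this pathway. In macrophages the pathway is known for its link to IL-4 signalling through STAT6, and neutrophils are known to rely mainly on glycolysis.

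Promoter sequences are shown for 2 pairs of these genes: Cpt1a and Slc25a20, neighbouring steps of the shuttle that were both higher on high-fat diet in both tissues of mice labelled STAT4-/-, and Hadha and Hadhb, which lie head to head and differed in how much they varied. They were picked after their values were seen. Each sequence is a RefSeq window on build GRCm38.p6, 250 bases before to 50 after the annotated start of the gene, and all 10 genes matched a window. The Cpt1a window is chr19:3323051-3323350 on the plus strand and that of Slc25a20 is chr9:108661886-108662185 on the plus strand. Capitals in both mark AGGTCA, a binding element of nuclear receptors such as PPARD, and GGGCGG, the GC box, on either strand.
Cpt1a: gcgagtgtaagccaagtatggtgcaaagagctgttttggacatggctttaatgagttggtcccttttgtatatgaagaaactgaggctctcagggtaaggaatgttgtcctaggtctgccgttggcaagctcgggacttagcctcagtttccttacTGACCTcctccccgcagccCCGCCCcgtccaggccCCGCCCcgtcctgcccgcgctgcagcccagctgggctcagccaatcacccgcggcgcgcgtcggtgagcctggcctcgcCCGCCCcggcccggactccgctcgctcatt
Slc25a20: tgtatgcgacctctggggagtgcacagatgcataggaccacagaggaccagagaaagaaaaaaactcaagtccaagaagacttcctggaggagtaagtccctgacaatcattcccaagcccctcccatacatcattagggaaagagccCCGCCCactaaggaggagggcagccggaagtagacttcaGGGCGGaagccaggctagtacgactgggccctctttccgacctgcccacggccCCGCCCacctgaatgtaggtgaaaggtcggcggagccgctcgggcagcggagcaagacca
The Hadha window is chr5:30154931-30155230 on the minus strand and the Hadhb window is chr5:30155003-30155302 on the plus strand. Capitals mark the 228 bases that the windows of these neighbours share, read from opposite strands.
Hadha: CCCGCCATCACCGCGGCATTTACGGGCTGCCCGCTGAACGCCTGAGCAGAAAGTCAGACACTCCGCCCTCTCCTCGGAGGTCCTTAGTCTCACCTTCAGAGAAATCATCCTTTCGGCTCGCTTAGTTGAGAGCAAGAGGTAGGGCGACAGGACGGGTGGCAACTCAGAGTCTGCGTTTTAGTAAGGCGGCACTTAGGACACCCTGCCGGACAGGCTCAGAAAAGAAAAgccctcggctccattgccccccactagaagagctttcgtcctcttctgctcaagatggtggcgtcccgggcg
Hadhb: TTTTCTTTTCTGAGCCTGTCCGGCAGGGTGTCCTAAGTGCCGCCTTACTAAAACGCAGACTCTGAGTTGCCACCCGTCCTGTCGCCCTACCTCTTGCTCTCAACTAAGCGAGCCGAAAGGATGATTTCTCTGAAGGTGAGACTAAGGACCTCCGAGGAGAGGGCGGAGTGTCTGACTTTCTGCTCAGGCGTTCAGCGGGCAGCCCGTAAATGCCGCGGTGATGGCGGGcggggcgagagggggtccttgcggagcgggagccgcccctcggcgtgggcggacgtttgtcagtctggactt

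Searched on both strands, GGGCGG was found in the windows of 7 of the 10 genes (all but Acadvl, Acadm and Pdk4), against 35.7% of all 32851 windows. The only Hadha match lies in the bases shared with Hadhb and is also counted for that gene. The share of G and C was 50.7% to 70.3% in the windows of the 10 genes, beside a median of 52.7% over all windows. AGGTCA was found in 3 of 10, those of Cpt1a, Acadvl and Acadm, against 16.3% of all windows. The direct repeat of these letters with 1 base between the copies, which contains AGGTCA and is the classic response element of PPAR and RXR, was found in 0 of 10 and in 0.0396% of all windows. CCAAT was found in 3 of 10 (Cpt1a, Pdk4 and Ppard; 37.4% of all windows) and TATAAA in 0 of 10 (13.6%). These letter matches describe the windows and are not binding sites.

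Levels are given as the log2 of the processed signal minus the log2 of the array's 75th percentile signal, so that 0 means a spot as bright as that percentile. Levels of different genes cannot be compared, because probes differ in brightness. The 10 genes had 12 probes, 2 each for Cpt1a and Cpt2, where the brighter is used unless stated. The brighter Cpt1a probe was spotted 10 times per array, and the SD over its spots was 0.04 to 0.15 on the log2 scale. A total of 9 genes were well above background on 16 of 16 arrays, and Pdk4 was on 11. The remaining error is unknown for a single pool, so the spread is taken from a limma model over all 16 arrays. A difference passed the test at an adjusted p under 0.05 over 28783 features. No member passed in any comparison of that model.

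Several arrays stand apart. Hdc was at 0.93 to 1.87 on the HDC-/- arrays and at 4.02 to 5.74 on all others. Stat6 was at 2.51 to 2.99 and well above background on the STAT6-/- arrays, against 3.40 to 4.09 in WT, and was as low on the control-diet arrays labelled STAT4-/- (2.53 and 2.29). Stat4 signal went against the label STAT4-/-, at 0.37 and 0.52 on control diet and at 2.70 and 3.46 on high-fat diet, against 0.12 to 1.28 in WT, and these are called STAT4-labelled arrays below. The Y-linked gene Ddx3y was between -9.17 and -5.92 on the control-diet arrays of STAT4-labelled and HDC-/- mice in both tissues, and between 0.63 and 2.18 on the other 12, which goes against the label male. Xist, expressed from the inactive X chromosome, was at -2.16 to -1.61 on those 4 and highest on the STAT6-/- marrow control array, at 0.47, where Ddx3y was at 1.74; it was at -3.55 or lower on the other 11. Itgam, which encodes CD11b, was at 3.10 to 6.0 in spleen and 4.70 to 6.0 in marrow. The spleen high-fat array of STAT4-labelled mice had the lowest mean level of B cell markers in spleen (-0.26, against up to 3.63), and the marrow control array of HDC-/- mice had the highest in marrow (0.79, against a lowest of -2.51). Median signal was 74.0 to 183.9 and the share of gene probes well above background 59.9% to 85.3%. The arrays lay on 4 slides of 4, each with both diets of 2 genotypes in 1 tissue, so a diet difference lies within a slide but tissue and slide cannot be told apart. In such bulk samples, fewer cells of a type and less RNA per cell cannot be told apart.

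**Figure D1:**
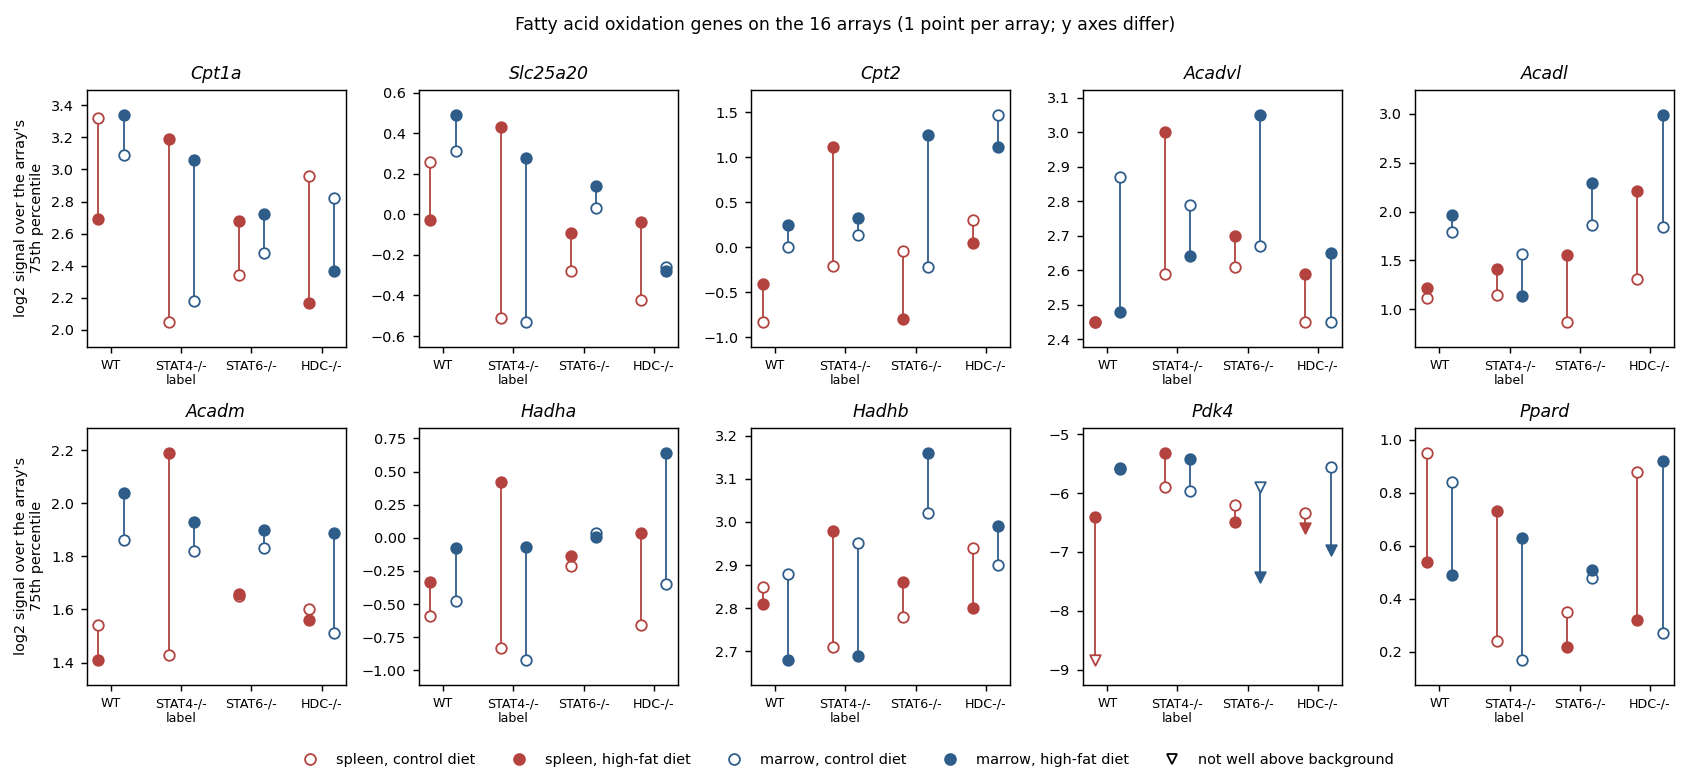
Level of each of the 10 genes on the 16 arrays (y axis, log2 signal over the array's 75th percentile; a separate scale for each gene), by genotype (x axis), tissue (colour) and diet (open, control; filled, high-fat), with a line joining the diets of a pair and triangles for arrays where the probe was not well above background. Cpt1a was lowest on the control-diet arrays of STAT4-labelled mice in marrow (2.18) and spleen (2.05), and Pdk4 was at -8.83 on the spleen control array of WT mice.

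Among the genes of the carnitine shuttle, Cpt1a, the rate-limiting enzyme of long-chain fatty acid entry, had its highest values in WT. There its level was 3.32 in spleen and 3.09 in marrow on control diet, and 2.69 and 3.34 on high-fat diet. On the STAT4-labelled arrays it was 2.05 and 2.18 on control diet and 3.19 and 3.06 on high-fat diet. These 4 values split by diet with no overlap between tissues, and the 2 control arrays were the lowest of the 16 apart from the HDC-/- spleen high-fat array. In STAT6-/- mice it was 2.34 and 2.48 on control diet and 2.68 and 2.72 on high-fat diet. In HDC-/- mice it was 2.96 and 2.82 on control diet and 2.17 and 2.37 on high-fat diet, the opposite order to the STAT4-labelled arrays in both tissues. The second Cpt1a probe gave the same order of diets on the arrays of all 3 knockouts, for instance -2.43 and -1.40 in STAT4-labelled spleen and -1.97 and -2.42 in HDC-/- spleen. In WT marrow it gave the opposite order, with -0.91 on control and -1.16 on high-fat diet.

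Slc25a20 is the acylcarnitine carrier. Its level in WT was 0.26 in spleen and 0.31 in marrow on control diet and -0.03 and 0.49 on high-fat diet. On the STAT4-labelled arrays it was -0.51 and -0.53 on control diet, the lowest of the 16, and 0.43 and 0.28 on high-fat diet. STAT6-/- arrays lay between -0.28 and 0.14, and HDC-/- arrays between -0.42 and -0.04. Cpt2, which restores acyl-CoA inside the mitochondrion, varied more, with an SD of 0.70 over the 16 arrays. It ranged from -0.83 in WT spleen on control diet to 1.47 in HDC-/- marrow on control diet, and its pairs did not follow diet: in STAT6-/- mice it was -0.04 and -0.80 in spleen and -0.22 and 1.25 in marrow, control diet first. The second Cpt2 probe, at -4.44 to -2.10, was higher on high-fat diet in 8 of 8 pairs, and the first in 5 of 8.

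Of the acyl-CoA dehydrogenases, Acadl varied most, with an SD of 0.55. It was 1.11 in WT spleen on control diet and 1.22 on high-fat diet, and 1.79 and 1.96 in WT marrow. STAT4-labelled arrays had 1.15 and 1.41 in spleen and 1.57 and 1.14 in marrow, and STAT6-/- arrays had 0.87 and 1.55 in spleen and 1.86 and 2.29 in marrow. HDC-/- arrays had 1.31 and 2.21 in spleen and 1.84 and 2.99 in marrow, so that each high-fat HDC-/- array was the highest of its tissue. Acadm, the medium-chain enzyme, had an SD of 0.23 and ranged from 1.41 to 2.19, and Acadvl, the very-long-chain enzyme, had an SD of 0.19 and ranged from 2.45 to 3.05.

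The subunits of the trifunctional protein differed in their spread although their genes are neighbours. Hadhb was the flattest of the 10, with an SD of 0.13 and a range of 2.68 to 3.16. Hadha had an SD of 0.42. It was -0.59 and -0.33 in WT spleen, control diet first, and -0.48 and -0.08 in WT marrow. On the STAT4-labelled arrays it was -0.83 and 0.42 in spleen and -0.92 and -0.07 in marrow, and on the HDC-/- arrays -0.66 and 0.04 in spleen and -0.35 and 0.64 in marrow. STAT6-/- arrays were close to each other, at -0.21 and -0.14 in spleen and 0.04 and 0.01 in marrow. The 2 control-diet STAT4-labelled arrays were the lowest of all 16, and all 7 pairs outside STAT6-/- marrow were higher on high-fat diet.

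Of the regulators, Pdk4 was close to background. Its level ran from -8.83 in WT spleen on control diet to -5.32 on the STAT4-labelled spleen array on high-fat diet, and its processed signal from 4.68 to 46.9. It was not well above background on 5 arrays (WT spleen control, HDC-/- spleen high-fat, both STAT6-/- marrow arrays and HDC-/- marrow high-fat), where its value is only an upper bound, and the fit used the measured values there. Ppard ranged from 0.17 to 0.95 with an SD of 0.27. On control diet it was 0.95 and 0.84 in WT spleen and marrow, 0.24 and 0.17 on the STAT4-labelled arrays, 0.35 and 0.48 in STAT6-/- and 0.88 and 0.27 in HDC-/- mice. On high-fat diet it was 0.54 and 0.49 in WT, 0.73 and 0.63 on the STAT4-labelled arrays, 0.22 and 0.51 in STAT6-/- and 0.32 and 0.92 in HDC-/- mice.

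Between spleen and marrow none of the 10 genes passed the test, whereas 31.9% of all features did (4332 higher and 4844 lower in spleen). The estimates of the 10 were all below 0, with a median of -0.12 beside -0.05 over all features. Under quantile normalization 4 of the 10 were above 0. Acadl came nearest, with a spleen mean of 1.35 ± 0.40 and a marrow mean of 1.93 ± 0.54 (SD, n = 8 each). The difference was -0.58 (SE 0.20, adjusted p = 0.0545, limma), and spleen was higher in 1 of 8 matched pairs of arrays. It passed in 8 of 29 alternatives, whose adjusted p ran from 0.019 to 0.187. Without the 2 arrays near the other tissue it was -0.68 (adjusted p = 0.0346). Cpt2 was -0.10 ± 0.63 in spleen and 0.54 ± 0.64 in marrow (SD, n = 8 each), a difference of -0.64 (SE 0.27, adjusted p = 0.097). Over 29 alternatives it ran from -0.83 to -0.23, with adjusted p from 0.0365 to 0.682, and it passed in 3 of them. Its second probe gave 0.15 (SE 0.22, adjusted p = 0.634), so the probes of this gene differ in direction. For Cpt1a the difference was -0.08 (95% interval -0.64 to 0.48) and for Ppard -0.01 (-0.43 to 0.42).

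**Figure D2:**
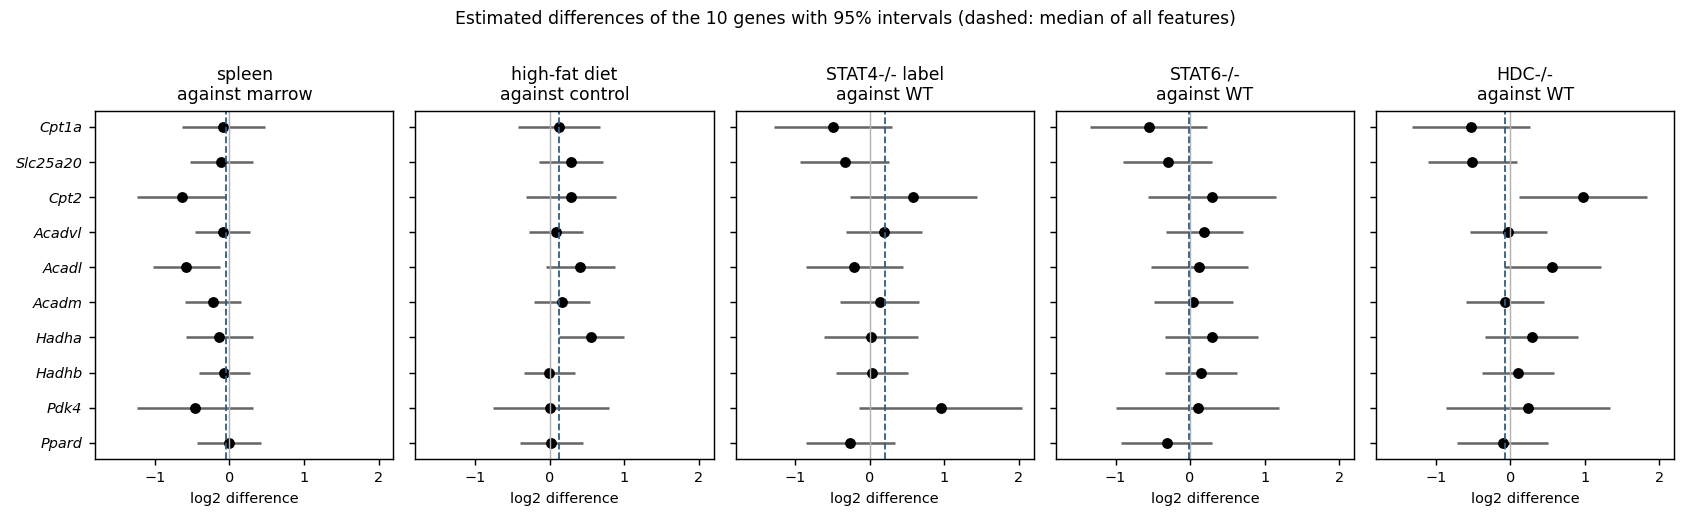
Estimated difference of each gene (points; x axis, log2 difference) with its 95% interval (bars) in 5 comparisons of the limma model over 16 arrays; the dashed line is the median of all 28783 features. The intervals of Acadl and Cpt2 lie below 0 for spleen against marrow, that of Hadha above 0 for diet and that of Cpt2 above 0 for HDC-/- against WT, and none passed after adjustment.

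Some genes around this pathway passed the test between the tissues, in both directions. Their counts stand beside the 31.9% of all features called, and nothing particular to these lists is read from them. Of 11 genes for fatty acid entry and activation, 3 were higher and 3 lower in spleen. Cd36, a fatty acid transporter of macrophages, was higher by 2.76 (SE 0.43, adjusted p = 0.00184), and Slc27a1, another transporter, by 2.60 (SE 0.58, adjusted p = 0.00897). Acsl1, which activates long-chain fatty acids to acyl-CoA, was lower, at -1.54 (SE 0.26, adjusted p = 0.00277), and Slc22a5, the carnitine transporter of the cell surface, was higher by 1.08 (SE 0.23, adjusted p = 0.00711). Of 7 genes of carnitine exchange and malonyl-CoA control, 1 was higher, Acacb, at 0.67 (adjusted p = 0.0483), whose enzyme makes the malonyl-CoA that inhibits CPT1. Of 15 other enzymes of mitochondrial oxidation, 3 were higher and 4 lower: Hadh, the short-chain counterpart of the trifunctional protein, was higher by 0.96 and the enoyl-CoA isomerase Eci1 by 0.90, while the acyl-CoA dehydrogenase genes Acad11 and Acad12 were lower, at -1.63 and -0.80 (adjusted p = 0.0343, 0.00444, 0.00525 and 0.0202).

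Of 10 peroxisomal genes, 1 was higher in spleen, the bifunctional enzyme Ehhadh, by 1.54 (adjusted p = 0.00321), and 4 were lower, among them the transporters Abcd2 at -1.47 (adjusted p = 0.00226) and Abcd3 at -1.01 (adjusted p = 0.00735). Of 10 genes of the PPAR family and its partners, 3 were higher and 3 lower. The coactivators Ppargc1a and Ppargc1b were higher by 2.23 (adjusted p = 0.00727) and 1.86 (adjusted p = 0.0174), and Pparg by 1.29 (adjusted p = 0.032), while the RXR gene Rxrg was lower, at -1.21 (adjusted p = 0.0101). Of 10 PPAR targets tested, 1 was higher, Hilpda at 1.11 (adjusted p = 0.0247), and 4 were lower, among them the acyl-CoA thioesterase gene Acot1 at -1.01 (adjusted p = 0.038) and the lipid droplet genes Plin5 at -0.95 (adjusted p = 0.028) and Plin4 at -0.82 (adjusted p = 0.0153). Of 8 genes of the pyruvate dehydrogenase switch, 3 were higher and 2 lower: Pdk1, a relative of Pdk4, was higher by 1.43 (adjusted p = 0.00327) and the phosphatase gene Pdp2 by 1.01 (adjusted p = 0.00458), while Pdk3, another relative, was at -0.86 (adjusted p = 0.031) and Pdha1, a subunit of the dehydrogenase, at -0.71 (adjusted p = 0.0202). Marker genes of some cell types also differed between the tissues, and those of other types are not given here. All 6 B cell markers were higher in spleen, with a summed signal of 7.40 to 133.2 times the 75th percentile against 1.4 to 32.0 in marrow, and Itgam was lower, at -1.29 (SE 0.29, adjusted p = 0.0097). Of 9 markers of red pulp macrophages, 7 were higher, at 49.9 to 109.1 against 38.4 to 68.1, and all 6 cell cycle genes were lower, at 10.8 to 54.1 against 40.5 to 61.0. The part of these cells in the gene differences was not tested.

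**Figure D3:**
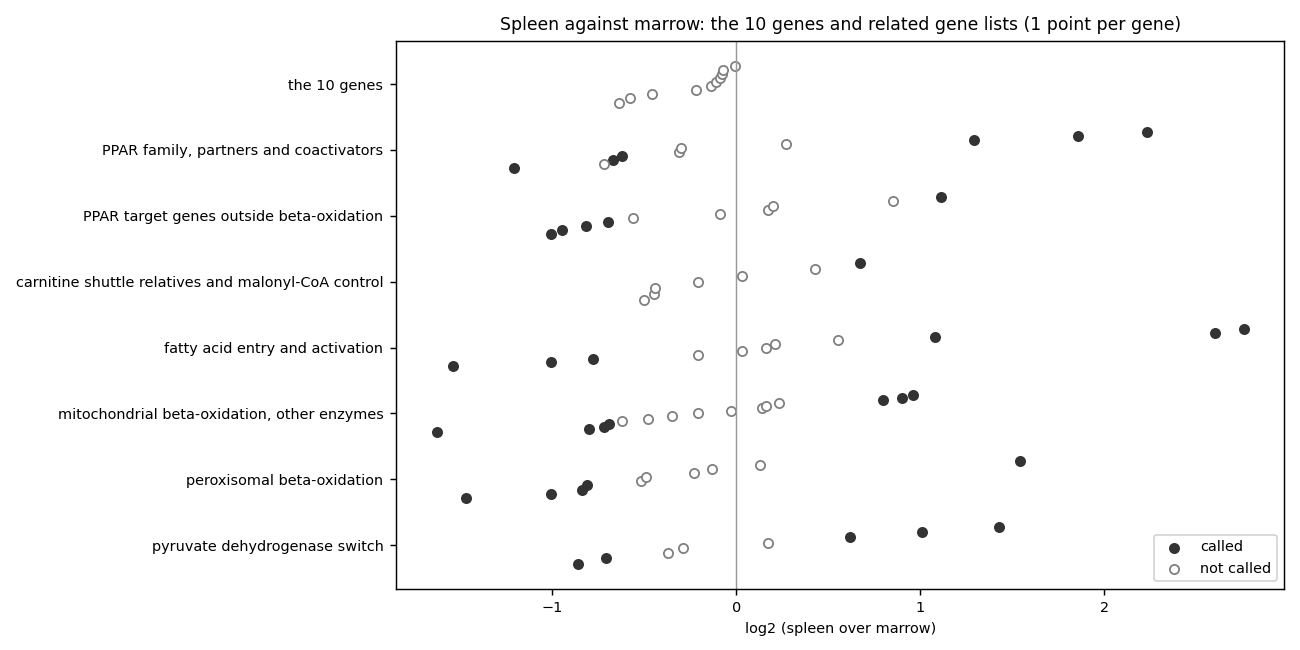
Difference between spleen and marrow (x axis, log2; 1 point per gene) for the 10 genes and 7 related lists; filled points passed the test and open points did not. The 10 genes lie between -0.64 and -0.01 with no filled point, while Cd36 at 2.76 and Acad11 at -1.63 are among the filled points of the lists.

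High-fat diet was compared with control diet over all genotypes. None of the 10 genes passed the test, and 0% of all features did (3619 features, or 12.6%, had an unadjusted p under 0.05). The same held for spleen alone and marrow alone (0% in each) and for the difference of diet effects between the tissues (0%). Of the 10 estimates 9 were above 0, with a median of 0.15 beside 0.13 over all features, and under median scaling 7 were above 0. Hadha was 0.06 ± 0.31 on high-fat diet and -0.50 ± 0.32 on control diet (SD, n = 8 each), a difference of 0.56 (SE 0.20, adjusted p = 0.388), and was higher in 7 of 8 pairs. In spleen it differed by 0.57 and in marrow by 0.55. Without the 4 control-diet arrays of low Y-linked signal the Hadha difference was 0.18 (adjusted p = 1); these are the control arrays of STAT4-labelled and HDC-/- mice. Acadl differed by 0.41 (SE 0.20, adjusted p = 0.389; 7 of 8 pairs) and Slc25a20 by 0.29 (SE 0.19, adjusted p = 0.440; 6 of 8 pairs), which was 0.05 without those arrays. Hadhb differed by -0.01 (95% interval -0.35 to 0.34) and Cpt1a by 0.12 (-0.43 to 0.68). The second Cpt2 probe differed by 0.82 (SE 0.22, adjusted p = 0.388) and the first by 0.28 (SE 0.27, adjusted p = 0.573).

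No gene of the 7 related lists passed for diet either. Among the smallest p values in their lists were those of Acads, the short-chain dehydrogenase, at 0.58 (SE 0.20, adjusted p = 0.388; 7 of 8 pairs), and of Ppara, the PPAR of liver fatty acid oxidation, at 0.64 (SE 0.25; 6 of 8 pairs). Crat, the carnitine acetyltransferase, differed by 0.97 (SE 0.40; 5 of 8 pairs), and Cd36 by -1.0 (SE 0.43; higher in 2 of 8 pairs). The median was -1.20 over the 6 B cell markers and -1.23 over the 6 natural killer cell markers for the same contrast, and none of these passed. The largest falls in their mean levels lay in STAT4-labelled and HDC-/- mice, whose control arrays had low Y-linked signal. For B cells this level was 2.81 and -0.26 in STAT4-labelled spleen, control diet first, and 0.79 and -2.51 in HDC-/- marrow. It rose in WT spleen (3.17 and 3.48) and STAT6-/- spleen (2.45 and 3.02) and fell in every other pair. For natural killer cells it rose in both STAT6-/- pairs and fell in every other. The part of these markers in the members' values was not tested.

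The diet difference was then taken genotype by genotype, which the 16 arrays allow as a pair in spleen and a pair in marrow. Cpt1a differed by 1.14 and 0.89 in STAT4-labelled mice, 0.34 and 0.24 in STAT6-/-, -0.63 and 0.25 in WT, and -0.80 and -0.46 in HDC-/- mice, spleen first. The pairs of STAT4-labelled and HDC-/- mice thus pointed in opposite directions in both tissues. Slc25a20 differed by 0.94 and 0.81 in STAT4-labelled mice, 0.38 and -0.02 in HDC-/-, 0.19 and 0.11 in STAT6-/-, and -0.30 and 0.18 in WT mice. Hadha differed by 1.24 and 0.85 in STAT4-labelled mice, 0.71 and 0.99 in HDC-/-, 0.26 and 0.40 in WT, and 0.07 and -0.03 in STAT6-/- mice. Acadl differed by 0.90 and 1.15 in HDC-/-, 0.68 and 0.43 in STAT6-/-, 0.11 and 0.17 in WT, and 0.26 and -0.42 in STAT4-labelled mice. Ppard differed by 0.48 and 0.46 in STAT4-labelled mice and by -0.42 and -0.35 in WT. In STAT4-labelled mice 7 of the 10 genes were higher on high-fat diet in both tissues and 0 were lower in both. The counts were 6 and 1 in STAT6-/-, 4 and 2 in WT, and 3 and 3 in HDC-/- mice. The share of all features with such signs was not computed, so nothing particular to these genes is read from the counts. Over all genotypes the median diet difference of all features was itself above 0, at 0.13.

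**Figure D4:**
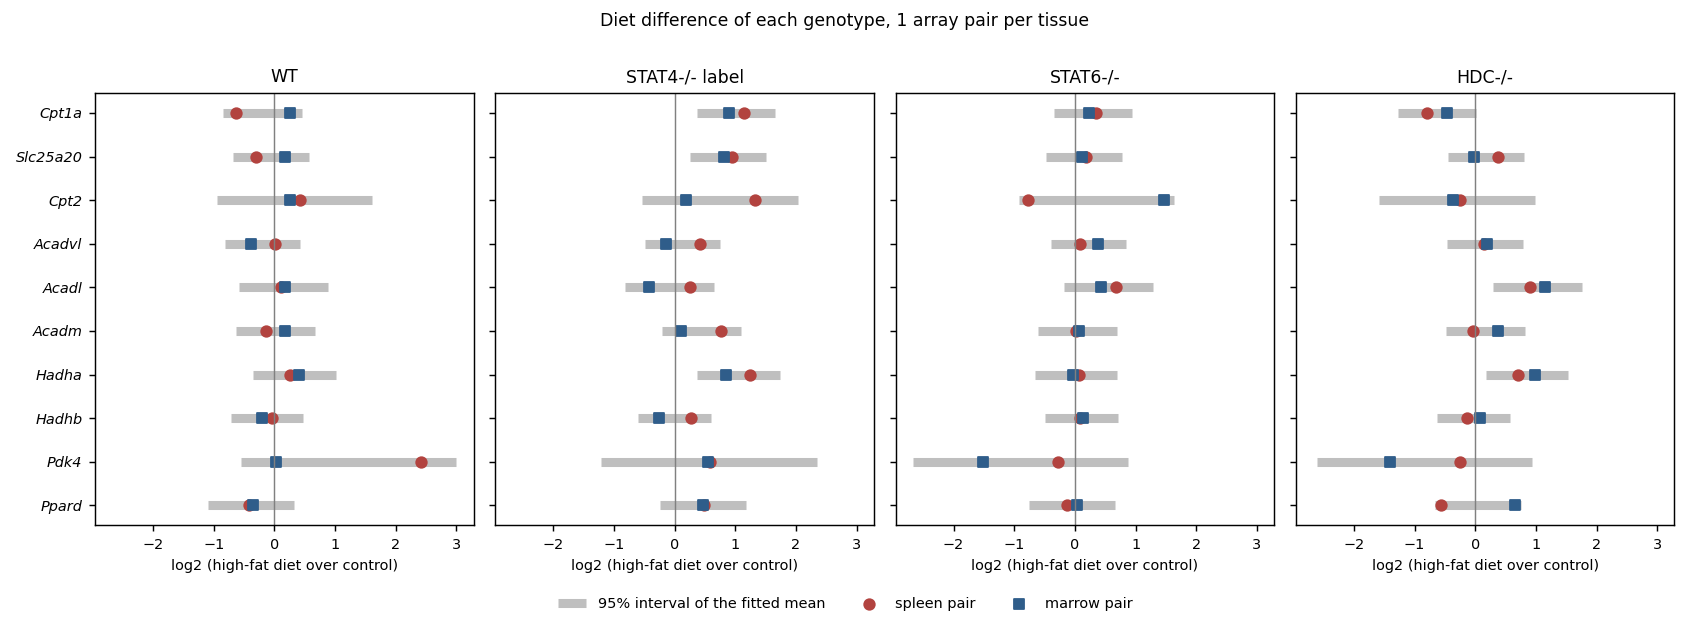
Diet difference of the 10 genes (x axis, log2 of high-fat diet over control) in each genotype, with 1 array pair from spleen (circles) and 1 from marrow (squares) and the 95% interval of the fitted mean of both (grey). Cpt1a, Slc25a20 and Hadha lie to the right of 0 in both tissues of STAT4-labelled mice (0.81 to 1.24), and Cpt1a lies to the left in HDC-/- mice (-0.80 and -0.46).

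In the planned test of each knockout's diet difference against that of WT, none of the 10 genes passed, with 0% of features called for STAT4-labelled mice, 0% for STAT6-/- and 0.00695% for HDC-/- mice. The Cpt1a value for STAT4-labelled mice against WT was 1.20 (SE 0.51, adjusted p = 0.951). A model with 1 mean per genotype and diet and an additive tissue term, chosen after the array pairs had been seen, also called none of the 10. In STAT4-labelled mice it gave diet differences of 1.01 for Cpt1a (SE 0.29, adjusted p = 0.269), 1.05 for Hadha (SE 0.30, adjusted p = 0.27) and 0.87 for Slc25a20 (SE 0.28, adjusted p = 0.305), where 0.0174% of features were called. In HDC-/- mice it gave 1.03 for Acadl (SE 0.33, adjusted p = 0.13), 0.85 for Hadha (SE 0.30, adjusted p = 0.163) and -0.63 for Cpt1a (SE 0.29, adjusted p = 0.258), where 1.95% of features were called. In WT and in STAT6-/- mice it called 0% of features. The Cpt1a diet difference in HDC-/- minus that in STAT4-labelled mice was -1.64 (SE 0.41, adjusted p = 0.438). In the STAT4-labelled pairs, control diet first, Stat4 was at 0.52 and 3.46 in spleen and 0.37 and 2.70 in marrow. Stat6 was at 2.53 and 3.90 in spleen and 2.29 and 4.08 in marrow. These shifts and diet cannot be told apart. In STAT4-labelled and HDC-/- mice the low Y-linked signal lies on the control side of both pairs, so this and diet cannot be told apart there. Markers of other cells differed within these pairs. In the HDC-/- spleen pair the summed erythroid signal was 5.96 times the 75th percentile on control diet and 124.3 on high-fat diet, that of natural killer cells 61.5 and 6.6, that of monocytes 56.6 and 21.4, and that of neutrophils 273.7 and 531.4. In the HDC-/- marrow pair the pro-B and pre-B signal was 56.8 and 1.05, and in the STAT4-labelled marrow pair 17.96 and 2.82. In the STAT4-labelled spleen pair the natural killer cell signal was 12.45 and 1.07. Their part in the diet differences was not tested.

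Knockout and WT arrays were compared over both tissues and diets. None of the 10 genes passed, with 0.0174% of features called for STAT4-labelled arrays, 0.0313% for STAT6-/- and 0.153% for HDC-/-. Cpt1a averaged 3.11 ± 0.30 in WT, 2.62 ± 0.59 on STAT4-labelled arrays, 2.55 ± 0.18 in STAT6-/- and 2.58 ± 0.38 in HDC-/- mice (SD, n = 4 each). Its differences from WT were -0.49 (SE 0.35, adjusted p = 0.657), -0.55 (SE 0.35, adjusted p = 0.88) and -0.53 (SE 0.35, adjusted p = 0.635). It was lower than WT in 4 of 4 matched pairs for STAT6-/- and for HDC-/- mice. The STAT4-labelled control arrays, of low Y-linked signal, were at 2.05 in spleen and 2.18 in marrow. The high-fat arrays of that label were at 3.19 and 3.06. HDC-/- control arrays also had low Y-linked signal. Over 28 alternatives the STAT4-labelled difference ran from -0.86 to -0.01 and the HDC-/- difference from -0.87 to -0.26. The 3 comparisons share their WT arrays. STAT6-/- and HDC-/- arrays lay on other slides than WT in both tissues, so slide and genotype cannot be told apart for those knockouts here. Slc25a20 was 0.26 ± 0.22 in WT and -0.25 ± 0.16 in HDC-/- mice (SD, n = 4 each), a difference of -0.51 (SE 0.27, adjusted p = 0.532). Cpt2 differed from WT by 0.98 in HDC-/- mice (SE 0.38, adjusted p = 0.392; higher in 4 of 4 pairs) and by 0.58 on STAT4-labelled arrays (SE 0.38, adjusted p = 0.615; 4 of 4 pairs). Its second probe gave 0.79 (SE 0.31, adjusted p = 0.388) in HDC-/- mice and 0.37 (SE 0.31, adjusted p = 0.7015) on STAT4-labelled arrays. In marrow on control diet that probe was lower on the STAT4-labelled array (-4.22) than in WT (-3.65). Acadl differed by 0.56 in HDC-/- mice (SE 0.29, adjusted p = 0.518; 4 of 4 pairs). Without the marrow control array of HDC-/- mice and the STAT4-labelled spleen high-fat array it differed by 0.84 (adjusted p = 0.415). Over 28 alternatives this Acadl difference ran from 0.29 to 0.90 and passed in 0. All 9 red pulp macrophage markers had estimates above 0 for HDC-/- against WT, with a median of 1.15 and none passing, and their part in these values was not tested.

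HDC-/- and STAT6-/- arrays shared their slides. Between them 0.0104% of features were called and none of the 10 genes: Cpt2 differed by 0.68 (SE 0.38, adjusted p = 0.852), Acadl by 0.44 (SE 0.29, adjusted p = 0.865) and Cpt1a by 0.03 (95% interval -0.76 to 0.81). Whether a knockout difference was unequal in spleen and marrow was tested last. None of the 10 passed, where 0% of features did for STAT4-labelled arrays, 7.64% for STAT6-/- and 16.4% for HDC-/-. Nearly all of the latter calls were on the positive side (2193 and 6 for STAT6-/-, 4725 and 6 for HDC-/-), and the median over all features was 0.44 and 0.58 there, beside 0.00 and 0.11 over the 10 genes. Under median scaling these feature medians were -0.11 and -0.09, and the medians of the 10 genes were -0.55 and -0.55, with 1 of 10 above 0 in each. With quantile normalization the feature medians were 0.09 and 0.11, and those of the 10 genes -0.01 and -0.05. The calls themselves were not stable: 0 features were called for STAT6-/- under median scaling and for both knockouts under quantile normalization, and leaving out 1 array moved the count by over 1.5 times for 9 of 16 arrays in STAT6-/- and 5 of 16 in HDC-/-, down to 0 without the WT spleen control array and the HDC-/- spleen control array, respectively. For STAT6-/- and HDC-/- mice WT lay on other slides in both tissues, so slide and genotype cannot be told apart in these values. Pdk4 had the largest estimates of the 10, at 2.11, 2.35 and 1.83 for the 3 knockouts (adjusted p = 0.279, 0.188 and 0.272), all of which draw on the WT spleen control array at -8.83, where it was not well above background.

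For Acadl and Cpt2, the genes of most similar pattern over the 16 arrays were found among 12799 named genes well above background on every array. The measure is the root mean square difference of values centred on each gene's mean. For Acadl these were Tmem143 at 0.31 and Cog6 at 0.33, beside an SD of 0.55 for Acadl itself. For Cpt2 they were Enpp4 at 0.31 and Fancf at 0.32, beside an SD of 0.70. None are given for Pdk4, the gene with the largest SD (0.89), since 5 of its 16 values are only bounds.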

How the data were processed

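Each array measured RNA of CD11b+ cells pooled from 5 mice. Signal intensity per spot was extracted by the authors with Agilent Feature Extraction 11.0.1.1, per the file headers, and the processed intensity is background-corrected but not normalized between arrays. The RNA was labelled with Cy3, per the labels' protocols. Control spots and 305 probes with an outlier flag were left out, spots of a probe were averaged as log2 intensity, and each array was scaled to its 75th percentile. Of 39429 probes 69.1% were named through RefSeq transcripts, and a gene was taken by its brightest probe. Features well above background on at least 2 arrays were kept (28783, of which 18665 have a symbol; all 10 members). limma 3.58.1 (R 4.3.3) fitted a mean for each genotype and tissue and a diet term per tissue (6 residual degrees of freedom), and all pairwise terms for diet by genotype (3 residual degrees of freedom). The normexp alternative used median signals. Adjusted p-values are from limma with Benjamini-Hochberg adjustment over all features, two-sided. As each combination has 1 pool, the spread comes from diets and genotypes treated as repeats, and the number of arrays limits the precision. Arrays were treated as independent, although spleen and marrow of a genotype and diet may come from the same mice. Named genes are all 10 members, up to 4 of those called per related list (where none is called, up to 2 of smallest p), and the 2 nearest genes of the 3 most variable members (not given for Pdk4); some genes this rule names are not reported here. The members and lists were chosen with earlier results of these data known. The fit was checked on simulated data. Python 3.11.15 and matplotlib 3.10.9 drew the figures. Alternatives covered scaling, background correction, filter, probe choice, flags, prior, model, slide and arrays left out.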

Additional observations from a re-analysis of the deposited data

Results flagged for a closer look

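Each member was examined in the 8 arrays of each tissue, 20 groups in all, for a highest or lowest value far from the others (Dixon's ratio above 0.526). Chance alone flags about 1 in 20 groups, and 4 values were found. Acadm was at 2.19 on the STAT4-labelled spleen high-fat array, with the next spleen value at 1.66. Acadvl was at 3.0 on the same array, with the next at 2.7. Acadm was at 1.51 on the HDC-/- marrow control array, with the next marrow value at 1.82. Both arrays are those whose B cell markers lay nearest to the other tissue. Pdk4 was at -8.83 on the WT spleen control array, where it was not well above background, with the next spleen value at -6.59.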

How the results depend on the processing

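Of 3555 member values under 30 alternatives, 12 newly passed the threshold with their direction kept, and 9 are given below as changed in direction. Among those 9, Hadhb between tissues also newly passed. A further 295 changed sign where the reported value was not called and lay within 1 SE of 0, and the rest kept their direction and side of the threshold. With normexp and quantile normalization 2 members were called between tissues, Cpt2 (-0.79, adjusted p = 0.038) and Hadhb (0.31, adjusted p = 0.00889), and Pdk4 turned to -0.02 for STAT4-labelled against WT arrays, 0.09 for the diet difference there, and -0.04 (STAT6-/-) and -0.23 (HDC-/-) for spleen minus marrow. Quantile normalization gave -0.40 for the last. Slc25a20 turned to -0.05 for diet in spleen with only WT and STAT6-/- arrays and with the 4 arrays of low Y-linked signal left out, and to 0.07 for STAT4-labelled against WT arrays in the latter. Acadl was the 1 member called between tissues with features above background on all 16 arrays (adjusted p = 0.0333), a trend and robust prior (0.0344), the additive model (0.0344), slide as a random block (0.0362; added after seeing the data), genotype by diet means (0.0235; also added) and without the 2 arrays near the other tissue (0.0346).

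Counts of features called moved as follows; the cause was not tested. For HDC-/- against STAT6-/- (3) they were 5 with median scaling, the stricter filter and the mean of probes, 6 with flagged spots kept, 7 with normexp, 8 with the trend prior, and 13 with quantile, additive and slide models. For STAT6-/- spleen minus marrow (2199) they were 0 with median scaling, quantile, normexp, the stricter filter, the trend prior and low-Y arrays left out. For HDC-/- spleen minus marrow (4731) they were 2078 with median scaling, 2190 without the 2 arrays, and 0 with quantile, normexp, the stricter filter and low-Y arrays left out. For STAT4-labelled against WT (5) they were 14 with the stricter filter, 25 in the additive and slide models, 3 with normexp and without the 2 arrays, and 2 without the low-Y arrays. For HDC-/- against WT (44) they were 69 with the trend prior, 19 without the 2 arrays and 4 without the low-Y arrays. For the diet difference against WT they were 8, 1, 0, 22, 109 and 11 in HDC-/- mice (2), with median scaling, quantile, normexp, stricter filter, trend prior and genotype by diet means. In STAT4-labelled mice (0) they were 1, 4 and 3 with the last 3 of these. Between tissues (9176) they were 3715 without the low-Y arrays.

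Leaving out each array in turn gave 5751 to 10661 features between tissues, with 0 to 1 members: Acadl without the STAT4-labelled marrow high-fat array (adjusted p = 0.0399) or the HDC-/- marrow control array (0.019), and Cpt2 without the STAT4-labelled spleen high-fat array (0.0365) or the STAT6-/- marrow control array (0.047). It gave 3 to 8 features for STAT4-labelled, 3 to 16 for STAT6-/- and 7 to 232 for HDC-/- against WT, 2 to 13 for HDC-/- against STAT6-/-, and 0 to 3063 (STAT6-/-) and 0 to 5954 (HDC-/-) for spleen minus marrow, where Pdk4 was called for STAT6-/- without the WT spleen high-fat array (3.55, adjusted p = 0.0397; 0 to 1 members). The main model already pairs the diets within genotype and tissue, and the 1 array per combination leaves no replicate number to block on. Pdk4 is limited by its signal near background.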

Other observations

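Among genes around the pathway, 1 of 10 PPAR targets tested had an estimate above 0 for HDC-/- against WT, with a median of -0.60 beside -0.07 over all features, and none passed. Acot1, an acyl-CoA thioesterase, was at 0.04 in HDC-/- and 1.63 in WT mice, a difference of -1.58 (SE 0.46, adjusted p = 0.249, limma; lower in 4 of 4 pairs). Hilpda, a lipid droplet protein gene, differed by -1.17 (SE 0.45, adjusted p = 0.38; higher in 1 of 4 pairs). Pparg differed by 1.29 (SE 0.56, adjusted p = 0.441; higher in 3 of 4 pairs). HDC-/- and WT arrays lay on different slides, so slide and genotype cannot be told apart in these values. The HDC-/- control arrays also had low Y-linked signal and the WT arrays did not, so on control diet this and genotype cannot be told apart either. These lists were chosen with earlier results of these data known.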
